A study of Mus musculus with 28 samples.

Results

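The regions described here are 2750 ATAC-seq peaks of mouse hair follicle stem cells that lie between genes and held fewer reads in old than in young animals. They were chosen from the 7849 peaks that the deposited ATAC-seq table lists, as those annotated distal intergenic, on chromosomes 1 to 19, whose mean unscaled count over the 4 old libraries was below that over the 4 young ones. They make up 35.0% of the listed peaks. Of the 3250 listed intergenic peaks on these chromosomes, 84.6% met the rule and the other 500 had more counts in old cells. The choice used the old against young contrast of the same counts, so that contrast is described and not tested. Each peak carries the gene that the authors' annotation places nearest to it, which need not be the gene it acts on.

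Cells were taken from skin of mice with the strain label 132-C67BL/6J at 6 months (young) and 24 months (old), with no other genotype or treatment in the labels. Trypsin-released cells were sorted by flow cytometry for CD34 and α6-integrin, the surface pair that marks stem cells of the follicle bulge; levels of other marker RNAs are not given in the tables used here. Beside ATAC-seq, the study holds RNA-seq with 3 samples per age, ChIP-seq for H3K27me3 with 3 per age, and ChIP-seq for H3K4me3 and RNA polymerase II (Pol2) with 2 per age each. Ages in months are recorded here for the ATAC-seq and RNA-seq samples, while ChIP-seq samples are recorded only as young or old. The series title asks about accessibility at bivalent promoters in aging, and the intergenic peaks are the part of the same accessibility data that lies away from promoters.

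ATAC-seq uses a transposase that cuts and tags DNA where nucleosomes leave it free, so a peak marks an open stretch of chromatin. Open stretches far from genes are often enhancers, short regions where transcription factors bind and from which they act on promoters at a distance. H3K27me3 is the mark of Polycomb repression and can cover broad domains, H3K4me3 sits at active and poised promoters, and Pol2 marks transcribed sites. Hair follicle stem cells rest in the bulge under BMP signals, are activated by Wnt signals, and keep their identity through enhancers bound by factors such as SOX9, LHX2, NFIB and KLF5.

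Although annotated as intergenic, some of these peaks held a start site of the RefSeq annotation. RefSeq promoter windows, which run from 250 bases before to 50 bases after a start site on GRCm38.p6, were touched by 43 of the 2750 peaks (1.56%), and 15 peaks held a whole window of 300 bases. Most of these starts belong to predicted genes, and 5 of the 43 peaks lay on an H3K4me3 peak. The windows below are shown because they are the stretches of these peaks whose letters could be read: the 4 whole windows in peaks that lie on an H3K4me3 peak, then, among the windows that lie whole inside a peak, the one with most AP-1 matches (Gm29854) and the one whose peak has the lowest old to young ratio (Gm35925). The last line is the promoter of Slitrk6, a gene with most of the peaks described here, and it lies outside them. Capitals mark matches on either strand to 4 motifs: AP-1 (TGANTCA), TEAD (GGAATG), KLF (CCACACCC) and SP (GGGCGG).
Gm21297: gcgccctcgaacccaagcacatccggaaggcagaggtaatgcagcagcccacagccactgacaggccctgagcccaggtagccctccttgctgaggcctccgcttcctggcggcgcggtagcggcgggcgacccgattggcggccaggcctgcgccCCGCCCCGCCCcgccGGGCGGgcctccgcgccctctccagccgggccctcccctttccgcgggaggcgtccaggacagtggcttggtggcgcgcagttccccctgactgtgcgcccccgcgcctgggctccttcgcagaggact
Gm41436: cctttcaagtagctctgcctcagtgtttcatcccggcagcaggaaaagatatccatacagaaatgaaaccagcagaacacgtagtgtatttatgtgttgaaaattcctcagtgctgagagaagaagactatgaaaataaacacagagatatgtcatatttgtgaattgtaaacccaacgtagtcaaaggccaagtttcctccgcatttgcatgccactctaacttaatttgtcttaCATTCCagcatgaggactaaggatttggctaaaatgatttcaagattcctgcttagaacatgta
Gm34099: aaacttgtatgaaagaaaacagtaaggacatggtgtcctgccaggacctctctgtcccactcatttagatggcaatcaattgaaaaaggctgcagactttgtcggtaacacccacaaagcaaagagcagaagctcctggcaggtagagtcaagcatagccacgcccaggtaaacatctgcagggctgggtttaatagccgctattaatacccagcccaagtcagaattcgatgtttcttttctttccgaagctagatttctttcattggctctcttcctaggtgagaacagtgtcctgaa
Gm39341: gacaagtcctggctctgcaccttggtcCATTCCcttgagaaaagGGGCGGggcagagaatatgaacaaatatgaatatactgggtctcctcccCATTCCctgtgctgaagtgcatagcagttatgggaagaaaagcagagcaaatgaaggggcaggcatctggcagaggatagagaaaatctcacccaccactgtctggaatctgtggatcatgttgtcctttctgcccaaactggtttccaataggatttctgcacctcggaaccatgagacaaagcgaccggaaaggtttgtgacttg
Gm29854: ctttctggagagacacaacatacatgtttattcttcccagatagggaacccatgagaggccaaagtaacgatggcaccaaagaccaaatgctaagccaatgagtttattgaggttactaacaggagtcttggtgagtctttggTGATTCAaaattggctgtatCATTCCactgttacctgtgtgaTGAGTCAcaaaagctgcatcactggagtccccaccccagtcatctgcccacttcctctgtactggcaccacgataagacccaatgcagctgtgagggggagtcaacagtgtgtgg
Gm35925: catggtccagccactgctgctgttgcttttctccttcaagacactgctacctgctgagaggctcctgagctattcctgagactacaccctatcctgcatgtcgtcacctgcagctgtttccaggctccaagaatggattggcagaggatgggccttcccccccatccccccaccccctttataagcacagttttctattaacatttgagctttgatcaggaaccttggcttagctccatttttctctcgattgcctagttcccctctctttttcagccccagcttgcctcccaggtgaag
Slitrk6: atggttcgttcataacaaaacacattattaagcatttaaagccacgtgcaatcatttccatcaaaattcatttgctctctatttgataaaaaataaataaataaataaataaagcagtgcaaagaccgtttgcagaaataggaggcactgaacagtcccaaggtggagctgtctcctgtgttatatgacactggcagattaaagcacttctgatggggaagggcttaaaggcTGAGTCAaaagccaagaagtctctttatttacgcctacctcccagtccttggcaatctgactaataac
The Gm21297 window was at chr12:24252389-24252688 on the minus strand, Gm41436 at chr16:26314061-26314360 on the plus strand, Gm34099 at chr8:57410180-57410479 on the plus strand and Gm39341 at chr9:54677153-54677452 on the minus strand. Gm29854 was at chr16:7767641-7767940 on the plus strand, Gm35925 at chr13:7175701-7176000 on the minus strand and the Slitrk6 promoter at chr14:110755100-110755399 on the minus strand, all in GRCm38.p6. Gm21297 stood out among the printed windows by base composition: 74.0% of its bases were G or C, it held 30 CG steps and 3 SP matches. Gm41436 had 39.0% G or C and 4 CG steps. Over the whole windows inside the peaks the median was 48.7% G or C, against 52.7% over all 32851 RefSeq windows.

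AP-1 letters occurred in 3 of the 15 peaks with a whole window and in 7.81% of all RefSeq windows, and TEAD letters in 4 (26.7%) against 14.7%. KLF letters occurred in 2 (13.3%) against 3.56%, and SP letters in 5 (33.3%) against 35.7%. With 15 windows each of these shares moves by 6.67 percentage points with a single window, and a match is a description of letters and not of binding. The Slitrk6 promoter held 1 AP-1 match, TGAGTCA.

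The peak with the Gm35925 window, 526.9 kb from the start of Pfkp, had 151, 147, 126 and 155 counts in the young libraries and 100, 54, 38 and 55 in the old ones (log2 ratio of old to young -1.23). The peak with the Gm29854 window, 657.0 kb from Tmem114, had 560, 519, 535 and 602 counts in young and 415, 337, 347 and 315 in old libraries (log2 ratio -0.65). In both peaks every old library was below every young one. The peak with the Gm41436 window, 56.4 kb from Cldn1, a gene for a tight junction protein, had 950, 873, 876 and 954 counts in young and 876, 647, 558 and 421 in old libraries, where old replicate 1 reached the level of the lower young ones.

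Over all 2750 peaks the median count was 234.5, 238.5, 246.5 and 283 in the 4 young libraries and 170, 165, 151 and 126 in the 4 old ones. Summed over the peaks, counts ran from 901497 to 1061581 in young and from 509585 to 655562 in old libraries. Young replicate 4 was the highest young library at 1254 of the peaks and old replicate 4 the lowest old one at 1320, so these libraries lie at the ends of both groups. The peaks took 36.7% to 38.3% of all listed-peak counts in young libraries and 32.4% to 34.1% in old ones.

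**Figure D1:**
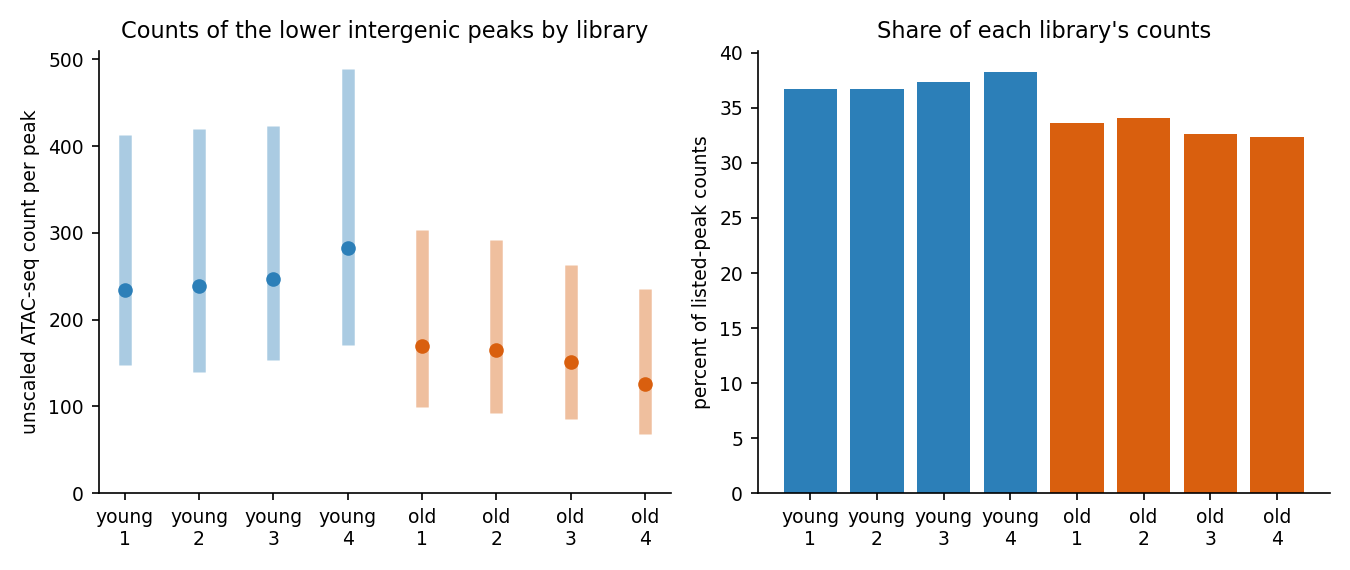
Left, unscaled counts per peak over the 2750 lower intergenic peaks in each ATAC-seq library, with the median as a point and the span from the lower to the upper quartile as a bar; right, the counts in these peaks as a percent of all listed-peak counts of that library. Medians run from 234.5 to 283 in young (blue) and from 126 to 170 in old (orange) libraries, a gap that the choice of the peaks fixes in direction.

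The median log2 ratio of old to young was -0.69 over the 2750 peaks and -0.64 over all 7849 listed peaks, of which 85.9% were lower in old. The unscaled totals over listed peaks also differed, from 2456110 to 2773284 in young and from 1572998 to 1946804 in old libraries. These totals are sums over selected peaks and no library depths, so less accessible chromatin and fewer reads cannot be told apart from them. Dividing by the totals moved the median of all listed peaks by 0.52, TMM scaling by 0.59 and DESeq2 size factors by 0.58 on the log2 scale. The median of the 2750 peaks was then -0.17, -0.10 and -0.11, and 2569, 1982 and 2060 of them were still lower in old. Ratios below are unscaled, and each is to be read beside the -0.64 of the whole list.

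All old libraries lay below all young ones at 1088 of the 2750 peaks (39.6%), and at 35.8% of all listed peaks. That share is near the one of the list as a whole and is no result about intergenic peaks. At 144 peaks just 1 young library exceeded every old one, and at 5 none did. The median coefficient of variation was 23.6% among young and 27.1% among old libraries. Ratios were narrow: 2355 peaks had a log2 ratio between -1 and -0.5, 395 lay under -1 and 10 under -2, and the listing threshold itself ends the range at -0.50.

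The intergenic peaks were short and lay far from genes. Their median width was 450 bp (range 100 to 2550) and their median distance to the annotated start site 46.7 kb, with quartiles of 19.3 and 118 kb and the farthest at 1845 kb, near Nlgn1, which encodes a neuronal adhesion protein. Of the 2750, 314 lay within 10 kb, 1127 between 10 and 50 kb, 515 between 50 and 100 kb, 727 between 100 and 500 kb, and 67 beyond. Upstream positions made up 61.1%. By chromosome, they made up the largest share of the listed peaks on chromosome 12 (43.8%) and the smallest on chromosome 6.

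The 10 peaks with the lowest ratios, among those with a mean young count of at least 50, were small. The lowest was at chromosome 3, 155599901 to 155600100, 376 kb from the start of 9330178D15Rik, with 72, 42, 63 and 135 counts in young and 0, 1, 8 and 3 in old libraries (log2 ratio -4.70). Next came a peak 177 kb from Edn1, the gene of the vessel-constricting peptide endothelin 1, with 28, 41, 76 and 73 counts against 10, 11, 10 and 0 (log2 ratio -2.81). A peak 67.7 kb from Dio3, which encodes the enzyme that inactivates thyroid hormone, had 110, 71, 149 and 146 counts against 46, 11, 8 and 11 (log2 ratio -2.65). In each of these 3 peaks no old library reached the lowest young one, and some old counts were near 0, where a ratio is imprecise.

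The other 7 of the 10 lay near Lpin1, a phosphatase of lipid synthesis, 4930528P14Rik, 4930570G19Rik, 9230105E05Rik, Kctd16, the sodium-calcium exchanger gene Slc8a1 and the RNA helicase gene Ddx18, and the lowest of their log2 ratios was -2.52. The Slc8a1 peak was the best covered of them, with 217, 263, 116 and 280 counts in young and 33, 23, 62 and 95 in old libraries. All 10 kept old below young in every library pair, and all 10 were lower in old under each of the 3 scalings, with log2 ratios from -4.11 to -1.37. Their choice as the lowest ratios made this likely beforehand, so it is no test.

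At the other end of the count range, the 3 peaks with the most reads lay near Ndufaf6, an assembly factor of respiratory complex I, Adamts5, a protease of the extracellular matrix, and Cyld, a deubiquitinase. The Ndufaf6 peak had 3125, 3226, 3162 and 3042 counts in young and 2509, 2257, 1995 and 2103 in old libraries, so the groups were apart, yet the log2 ratio was -0.50. After scaling it was between 0.01 and 0.08, above 0 in each, while that of Adamts5 was above 0 under TMM alone and that of Cyld under TMM and DESeq2 size factors. The 3 peaks nearest to the threshold were those of Cipc, C1galt1 and Sdk1, all at -0.50. Just outside the rule, at 0.50, were intergenic peaks near Nelfa, Cdk15 and 9430083A17Rik. The Cipc peak had 512, 260, 340 and 335 counts against 243, 291, 248 and 241, and the Nelfa peak 200, 136, 125 and 136 against 175, 202, 246 and 222, so both overlapped between the ages.

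The 2750 peaks were annotated to 1801 genes. A single peak each fell to 1269 genes, 2 to 320 genes and 3 or more to 212 genes, which together hold 841 peaks (30.6%). The most peaks at a gene were 10, reached by Slitrk6, 2310008N11Rik, Tle4 and Klf5. Summed over a gene's peaks, all old libraries were below all young ones at 176 of the 212 genes. The same held at 18 of the 19 genes with 7 or more peaks, the exception being Tenm4. These sums add peaks chosen for lower old counts, and no such share was computed for sums over other listed peaks. After division by totals, TMM and DESeq2 size factors the groups were apart at 14, 5 and 5 of the 212 genes. Sums stayed lower in old at 210, 187 and 192 of the 212 genes after these 3 scalings. The sums of all 19 stayed lower in old under each scaling, but the groups were then apart at 2 of the 19 after division by totals (Klf5 and Nfib) and at 0 after TMM or DESeq2 size factors.

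Slitrk6, which encodes a membrane protein that guides nerve growth and synapse formation, had all 10 peaks on the downstream side, from 91.4 to 864 kb from its start, spread over 772 kb of chromosome 14. Their summed counts were 3786, 3364, 3958 and 4859 in young and 2640, 2351, 1882 and 1845 in old libraries (log2 ratio -0.87). No old library reached the lowest young one. The strongest of the 10, at 110498851 to 110500000, had 1330, 1226, 1119 and 1594 counts against 866, 747, 560 and 644. Groups did not overlap at 5 of the 10 peaks, beside 39.6% of all intergenic peaks described here and 35.8% of all listed peaks. The difference from these shares was not tested.

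The other genes with most peaks included several transcription regulators, whose share was not compared with that over all genes. Klf5, a factor of epithelial stem and progenitor cells, had 10 peaks from 86.9 to 333 kb downstream with sums of 3349, 3364, 3340 and 3825 against 2487, 2329, 2101 and 2042 (log2 ratio -0.63). Tle4, a co-repressor that binds TCF/LEF factors, had 10 peaks, all upstream, with sums of 3773, 3947, 4302 and 5036 against 2824, 2909, 2674 and 1903 (log2 ratio -0.73). In both genes the groups were apart, and old replicate 4 was the lowest library.

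Bcl6, a zinc finger repressor, had 9 peaks with sums of 4249, 5139, 4886 and 4115 in young and 3204, 3437, 2293 and 2896 in old libraries. Noct, a circadian phosphatase of nicotinamide cofactors, had 9 with 4769, 5343, 4798 and 5732 against 4017, 3867, 3133 and 2756. Klf6, an early response factor, had 8 with 1353, 1844, 2063 and 2282 against 1197, 1161, 965 and 766. For each of the 3 the highest old library stayed below the lowest young one, with the narrowest gap at Klf6.

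Another 8 peaks each fell to Maf, Prdm1 and Tenm4. Prdm1, the gene of the repressor BLIMP1 that marks sebaceous and other differentiating skin cells, had sums of 2649, 2613, 2571 and 2855 against 1949, 1913, 1656 and 1388, with a young spread of 126 (SD, n = 4). For Tenm4, a neuronal adhesion gene, young replicate 1 with 2017 lay under old replicate 1 with 2028, so the groups overlapped. Groups of 7 peaks fell to each of 1700108F19Rik, the epidermal factor gene Tfap2c, Actl7b, Gm7550, Arl4a, the BMP ligand gene Bmp7, the stem cell factor gene Nfib, Nfkbiz and Med13l, with log2 ratios of the sums from -0.85 to -0.61.

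**Figure D2:**
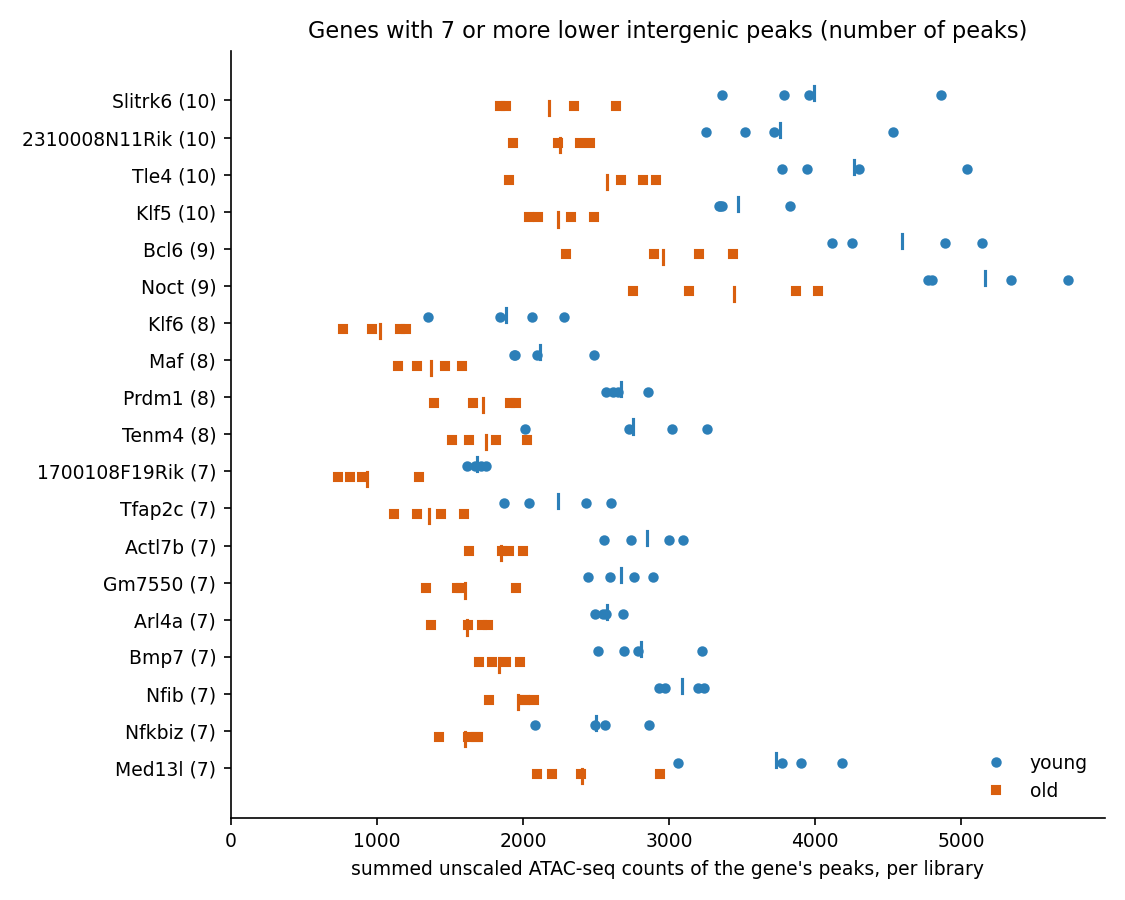
Summed unscaled ATAC-seq counts of the lower intergenic peaks of the 19 genes with 7 or more such peaks, 1 point per library, young as circles and old as squares, with group means as vertical ticks and the number of peaks after each name. The groups overlap at Tenm4 and lie apart at the other genes, as at Slitrk6, where the highest old library has 2640 and the lowest young one 3364.

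Most peaks stood alone. With neighbours joined where the gap was at most 10 kb, 2106 peaks (76.6%) had no neighbour, 237 pairs formed, and 53 runs held 3 or more peaks, 170 in all. The longest run, of 5 peaks, lay upstream of Noct on chromosome 3 from 51080301 to 51096850, with summed counts of 2816, 2931, 2407 and 3086 in young and 2167, 2211, 1699 and 1330 in old libraries. Runs of 4 lay near Klf6, Dok5, Bmp7 and Prr9, a gene of the epidermal differentiation cluster. The Klf6 run was the densest, with 4 peaks in 3.55 kb from 13.2 kb downstream of its start, and had 632, 972, 877 and 626 counts against 342, 445, 422 and 353 (log2 ratio -0.99). At Dok5 young replicate 1, with 1928 counts, lay below old replicate 1, with 2200. Groups were apart in the runs of Noct, Klf6, Bmp7 and Prr9, and in 38 of the 53 runs, all unscaled. Runs also sum peaks chosen for lower old counts, and no such share was computed for runs of other listed peaks.

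Among gene lists chosen for this tissue, the stem cell identity list had 9 of its 13 genes with a listed ATAC-seq peak represented here, by 26 peaks, beside 1801 of 4729 genes (38.1%) over the whole list of peaks. Beside Klf5 and Nfib, these were Tcf7l2 and Lgr5 with 2 peaks each and Lhx2, Cd34, Zbtb16, Nfia and Id3 with 1. The Lhx2 peak, 31.4 kb downstream of this bulge transcription factor gene, had 167, 244, 215 and 179 counts in young and 74, 58, 41 and 93 in old libraries (log2 ratio -1.60). The peak 29.5 kb upstream of Cd34, the sorting marker, had 106, 133, 164 and 280 against 69, 100, 77 and 57 (log2 ratio -1.17). Groups were apart in both. The 2 peaks of Lgr5, a Wnt co-receptor of active stem cells, summed to 1569 ± 73.6 against 1069 ± 331 (SD, n = 4 each), a log2 ratio of -0.55. All 26 peaks stayed lower in old after division by totals, and 20 of them after TMM. Over all 2750 peaks these shares were 93.4% and 72.1%. At genes of this list 1 intergenic peak had more counts in old, beside 500 over the whole list of peaks.

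For signalling, the BMP and TGF-β list had 14 of 24 genes with such peaks, 32 peaks in all. The share over all genes with a listed peak, 38.1%, stands beside each list here. Ligands included Bmp7 with 7 peaks and Bmp4 with 1 (223 ± 40.6 against 109 ± 38.2 counts, SD, n = 4 each). Among receptors, Tgfbr2 and Acvr2a had 5 each. The 5 Tgfbr2 peaks summed to 878 ± 84.2 in young against 522 ± 39.8 in old (SD, n = 4 per age), a log2 ratio of -0.75, and the Acvr2a peaks to 1333 ± 190 against 887 ± 167, a log2 ratio of -0.59. The Wnt list had 8 of 24 genes and 17 peaks, with 4 at the receptor gene Fzd1 and 3 at Lef1, the transcription factor that acts with β-catenin. Of the Notch, Hedgehog and FGF genes, 13 of 21 had such peaks and 21 peaks, led by the ligand gene Jag1 and the receptor gene Fgfr1 with 3 each. After TMM scaling 25 of the 32 BMP and TGF-β peaks, 12 of the 17 Wnt peaks and 12 of the 21 Notch, Hedgehog and FGF peaks were still lower in old.

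Of the matrix and adhesion lists, basement membrane had 7 of 20 genes and 13 peaks, 5 of them at Tnc, the gene of the matrix protein tenascin C. Gene counts in this paragraph stand beside 38.1% over all genes with a listed peak. Integrins, adhesion and mechanosensing had 8 of 17 genes and 13 peaks, with 3 each at Ctgf and Actn1 and 2 at Cyr61, both Ctgf and Cyr61 being known targets of mechanical signalling through YAP. The Cyr61 peaks had a mean of 131 ± 20.5 counts in young libraries against 61.8 ± 7.14 in old (SD, n = 4 per age), a log2 ratio of -1.09. The immediate early and stress list had 7 of 14 genes and 19 peaks, and 18 of the 19 stayed lower in old after TMM. The developmental regulators had 22 of 40 genes and 33 peaks, and axon guidance and neuronal adhesion 9 of 28 genes and 26 peaks, 10 of these at Slitrk6. The hair shaft and matrix list had 5 of 11 genes and 10 peaks. Intergenic peaks with more counts in old numbered 2 for basement membrane, 1 for integrins and adhesion, and 5 for immediate early and stress. They numbered 4 for developmental regulators, 6 for axon guidance and 2 for hair shaft and matrix.

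Lists for other cells of the skin were measured in the same way, beside the same 38.1%, most of them with few genes that had a listed peak. Keratins and interfollicular epidermis had 9 of 14 genes and 17 peaks, 6 of them at Trp63, the epithelial master factor gene that stem cells also use, and sebaceous gland had 3 of 6 genes and 10 peaks, 8 of them at Prdm1. The fibroblast list had 3 of 7 genes and 3 peaks (Col6a3, Crabp1, Dpt), and endothelium, muscle and glia 2 of 8 genes and 2 peaks (Cdh5, Sox17). The melanocyte list had 1 of 2 genes (Tyrp1) and the immune list 1 of 2 (Epcam), with 1 peak each. Intergenic peaks with more counts in old numbered 3 for the fibroblast list and 2 for the melanocyte list. The keratin, sebaceous gland, immune and endothelium lists had 0 of them. The Tyrp1 peak lay above 0 under all 3 scalings and the Epcam peak above 0 under TMM and DESeq2 size factors. Whether other cells in the sort contributed to the peaks was not tested.

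The question how far these peaks carry histone marks was answered with the ChIP-seq libraries, which the choice of peaks did not use. Of the 2750 intergenic peaks, 2457 (89.3%) overlapped no listed peak of H3K27me3, H3K4me3 or Pol2. H3K27me3 peaks were met by 165 (6.00%), H3K4me3 peaks by 137 (4.98%) and Pol2 peaks by 19 (0.691%). Among the 1121 promoter peaks with fewer counts in old cells these shares were 28.2%, 63.2% and 6.87%, and among the 2283 intronic ones 3.55%, 7.62% and 3.46%. For the 500 intergenic peaks with more counts in old they were 5.60%, 3.40% and 0.200%, the last from 1 peak, and the differences from the lower ones were not tested.

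**Figure D3:**
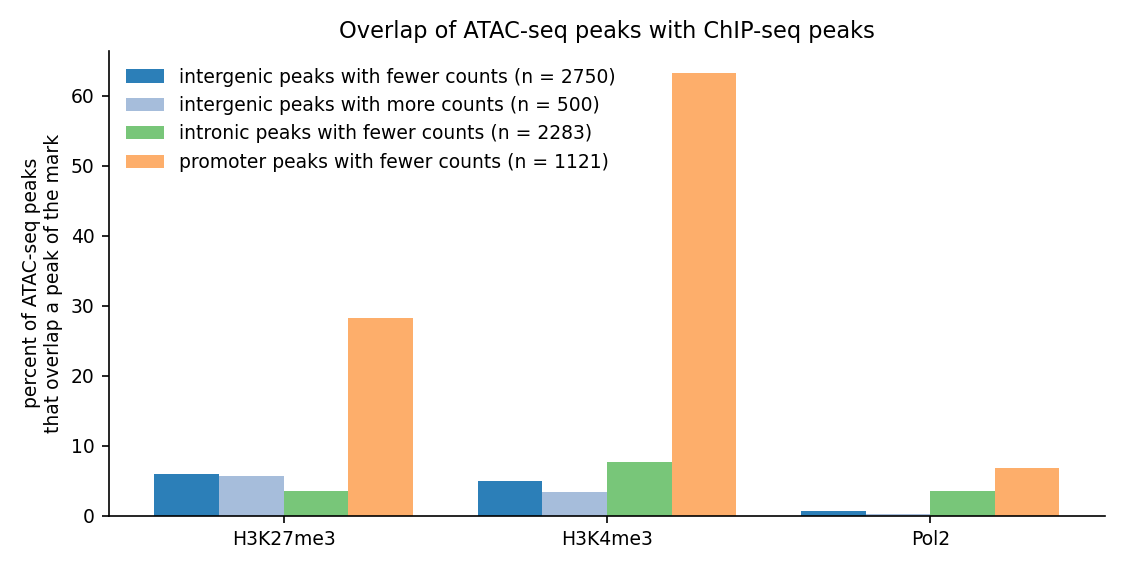
Percent of ATAC-seq peaks of each class that overlap a listed ChIP-seq peak by at least 1 bp, for H3K27me3, H3K4me3 and Pol2. Both intergenic classes stay at or below 6.00% for each mark, while promoter peaks reach 63.2% for H3K4me3.

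Few intergenic peaks carried marks together. Both H3K27me3 and H3K4me3 lay at 19 of them, among them peaks near Sox21, Lef1 and Nkd1, H3K4me3 with Pol2 at 8, near Actb, Chd2, Fos, Hopx, Nfib, Sgk1 and Tmx1, and all 3 marks at 0. The median log2 ATAC-seq ratio was -0.72 for peaks on H3K27me3 and -0.68 for those off it, and -0.62 on and -0.69 off H3K4me3.

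The 165 peaks on H3K27me3 met 152 peaks of that mark. Of the 152, the authors' deposited table called 32 (21.1%) lower in old at a false discovery rate (FDR) under 0.05 and 2 higher, beside 2.60% called lower and 2.66% called higher over all 67985 peaks. The median of the authors' log2 fold change was -0.24 at the 152 and 0.12 in the whole of the authors' deposited table. The 152 were also broad and strong, with a median width of 6.89 kb and a log2 level of 9.00, against 1.19 kb and 5.83 over the authors' deposited table. Of the 100 that were themselves distal intergenic, 14 were called lower and 1 higher, beside 1.48% and 2.28% of all such peaks in the authors' deposited table. Of the 47 of these that were at least 5 kb wide, 11 (23.4%) were called lower and 1 higher, beside 6.52% and 3.76% in the authors' deposited table. Under the intergenic ATAC-seq peaks with more counts in old, 6 of 28 H3K27me3 peaks (21.4%) were called lower, and the difference between the classes was not tested.

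The H3K27me3 peak with the lowest FDR covered 27.4 kb at Sp8, a limb and skin appendage factor gene, with a log2 fold change of -0.76 (FDR 2.15e-09) in the authors' deposited table. The ATAC-seq peak on it, 9.08 kb upstream, had 341, 284, 421 and 460 counts in young and 349, 177, 266 and 121 in old libraries, so old replicate 1 exceeded young replicates 1 and 2. A 57.0 kb domain near Edn2, an endothelin gene, had -0.84 (FDR 5.93e-06) in the authors' deposited table, and the ATAC-seq peak in it had 584, 508, 519 and 541 against 475, 355, 249 and 289 with no overlap. A 4.04 kb peak 157 kb from Satb1, a chromatin organiser gene, had -1.48 (FDR 1.63e-05) in the authors' deposited table.

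Also among the 8 with the lowest FDR were lower H3K27me3 peaks under ATAC-seq peaks annotated to Pou3f2, Hoxc12, Eya1 and Mycn, developmental transcription regulators all, with log2 fold changes between -1.15 and -0.61 in the authors' deposited table. That table annotates the H3K27me3 peak of the Hoxc12 case to the promoter of Hoxc11 and names no gene for that of the Mycn case, whose ATAC-seq peak lies 263 kb from Mycn. The only 2 called higher were a 13.4 kb peak at the ATAC-seq peak annotated to Atp5o, with 0.77 (FDR 0.00184), and a 9.13 kb peak 128 kb from Tfap2c, with 0.58 (FDR 0.0282), both in the authors' deposited table. The ATAC-seq ratio of the Satb1 peak was above 0 under all 3 scalings, and those of Sp8, Edn2, Pou3f2, Hoxc12, Eya1, Mycn, Atp5o and Tfap2c stayed below 0 under each.

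Some Polycomb domains held several of the intergenic peaks. A domain of 239.9 kb on chromosome 14 (76583747 to 76823646) held 8, of which 7 were annotated to 1700108F19Rik and 1 to Serp2, and its log2 fold change was -0.34 (FDR 0.145, not called) in the authors' deposited table. The 7 summed to 1671, 1617, 1746 and 1711 counts in young and 1287, 735, 900 and 819 in old libraries (log2 ratio -0.85), with old replicate 1 nearest to the young range. Of 8 domains with 2 peaks, 4 were called lower and 4 were not. The lower ones were those of Bmp7 (-0.51, FDR 0.00959), Abcc12 (-0.65, FDR 0.0141), A730082K24Rik (-0.41, FDR 0.0355) and Klf5 (-0.46, FDR 0.0494) in the authors' deposited table. Those not called, at Ppp1r15b, Sox21, Foxl1 and Cxxc5, had log2 fold changes of -0.29, -0.20, -0.15 and 0.02 in the authors' deposited table.

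For H3K4me3, 118 of the 135 peaks under the intergenic peaks (87.4%) were called lower in old and 0 higher in the authors' deposited table, beside 79.1% and 0.281% over all 21390 peaks. Their median log2 fold change of -1.34 lay beside -1.37 for the whole of the authors' deposited table. Of the 75 that were themselves distal intergenic, 63 (84.0%) were called lower and 0 higher, beside 67.5% and 1.30% of all distal intergenic H3K4me3 peaks in the authors' deposited table. Under the intergenic ATAC-seq peaks with more counts in old, 7 of 18 H3K4me3 peaks (38.9%) were called lower in the authors' deposited table, and the difference between the classes was not tested.

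Sox21, which encodes a factor of hair shaft differentiation, had the H3K4me3 peak with the lowest FDR, at 10.3 kb wide and with a log2 fold change of -2.52 (FDR 6.83e-14) in the authors' deposited table. The ATAC-seq peak on it, 5.13 kb downstream of the start, had 423, 339, 401 and 382 counts in young and 199, 114, 128 and 198 in old libraries. The other Sox21 peaks had 246, 184, 310 and 159 against 127, 63, 128 and 125, and 115, 232, 202 and 240 against 64, 102, 64 and 54. In all 3 every old library was below every young one, and the sums stayed apart after each of the 3 scalings (log2 ratios -0.72, -0.64 and -0.65). An H3K27me3 domain of 32.1 kb covered 2 of the 3 and was not called, at -0.20 (FDR 0.456) in the authors' deposited table.

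Distal H3K4me3 peaks with low FDR lay under ATAC-seq peaks near Mir3105 (-2.39, FDR 6.26e-09), Vcpkmt (-2.04, FDR 1.34e-08), Mir3080 (-2.06, FDR 1.61e-07) and Nkd1, a Wnt inhibitor gene (-1.63, FDR 2.12e-07), in the authors' deposited table. The peaks near 9530059O14Rik, Mir34a and the stress gene Sesn2 met H3K4me3 peaks annotated as promoters, with log2 fold changes of -1.93, -1.67 and -1.52 in the authors' deposited table. The ATAC-seq ratios of Mir3105, Vcpkmt and Nkd1 were above 0 under TMM and DESeq2 size factors, and those of the other 5 of these 8 genes stayed below 0 under each scaling.

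**Figure D4:**
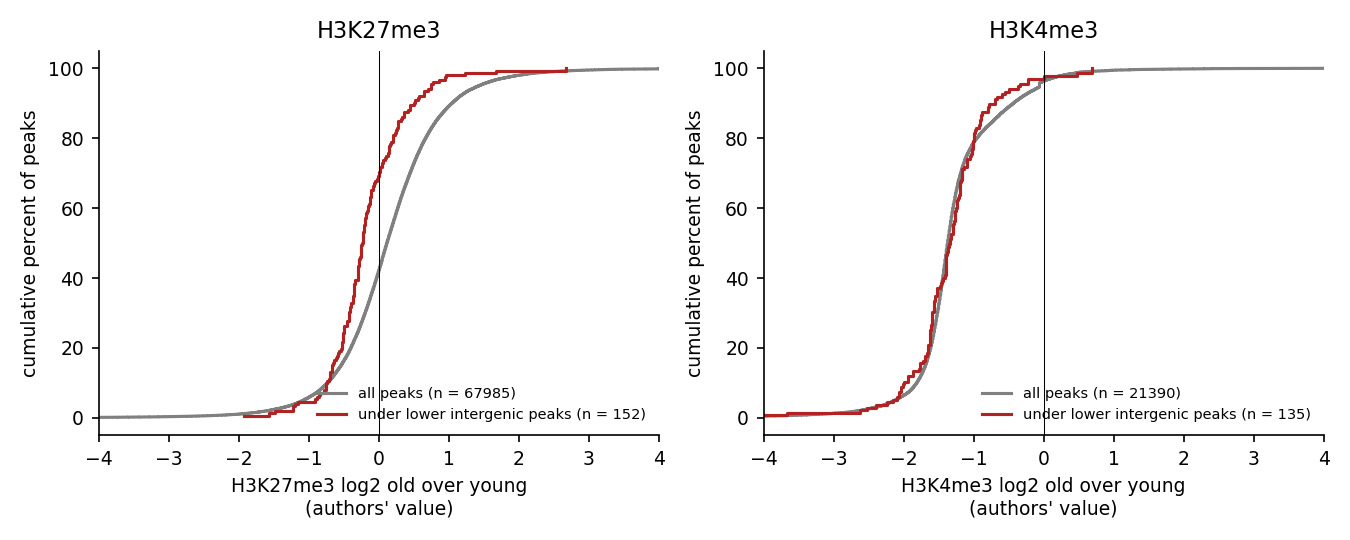
Cumulative percent of peaks by the authors' log2 fold change of old over young, for H3K27me3 (left) and H3K4me3 (right), with all peaks of each table in grey and those under lower intergenic ATAC-seq peaks in red; the axis is cut at -4 and 4. The red curve lies left of the grey one for H3K27me3, with medians of -0.24 and 0.12, and runs along it for H3K4me3, with medians of -1.34 and -1.37.

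Pol2 met the intergenic peaks at 16 peaks, of which 3 were called lower and 1 higher in the authors' deposited table, beside 52.9% and 0.0442% over all 6789. The 3 lower ones lay near Ets2 (-2.45, FDR 0.00173), Nfib (-1.72, FDR 0.023) and Tmx1 (-1.78, FDR 0.0401) and the higher one near Gpm6a (2.91, FDR 0.00764) in the authors' deposited table. The Gpm6a ATAC-seq peak had 337, 252, 124 and 243 counts in young and 223, 42, 178 and 230 in old libraries, with wide overlap. A Pol2 domain of 19.1 kb at Klf6 covered the 4 peaks of the dense run and was not called, at -1.20 (FDR 0.126) in the authors' deposited table. The ATAC-seq ratio of Nfib was below 0 under each scaling, those of Ets2 (TMM), Tmx1 (TMM and DESeq2 size factors) and Gpm6a (all 3) were not.

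The promoters of the genes with several intergenic peaks were compared in the same way, and no difference from other genes was tested. Of the 212 genes with 3 or more peaks, 133 had an H3K4me3 promoter peak and 128 of these (96.2%) were called lower and 0 higher in the authors' deposited table, beside 97.9% and 0.0259% of all genes with one. Pol2 promoter peaks were present at 61 and called lower at 48 (78.7%), beside 88.5% of all genes with one and 264 of the 299 (88.3%) among genes with 1 or 2 intergenic peaks in the authors' deposited table. H3K27me3 promoter peaks were present at 29, of which 9 (31.0%) were called lower and 0 higher, beside 14.4% and 4.15% of all genes with one in the authors' deposited table. Genes with 1 or 2 intergenic peaks had 67 of 307 (21.8%) called lower in the authors' deposited table. Both promoter marks were present at 21 of the 212 genes (9.91%) and at 144 of the 1589 genes with 1 or 2 (9.06%).

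RNA was compared through the authors' deposited table, which lists 597 selected genes with the sign as its header gives it. Of the 1801 genes with a lower intergenic peak, 69 were listed, and 37 of these were called higher in old and 12 lower at an adjusted p under 0.05, beside 38.0% higher and 18.8% lower over the authors' deposited table. For the 24 listed genes with 2 or more peaks, 17 were higher and 2 lower, and for the 12 with 3 or more, 8 and 2. The listed genes are a selection, so these counts describe them alone.

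Slitrk6, with 10 lower peaks, had RNA that rose by 1.16 ± 0.18 (SE) on the log2 scale (adjusted p 5.6e-07), and Sox21, with 3, by 1.22 ± 0.17 (adjusted p listed as 0), in the authors' deposited table. At both genes the authors' deposited table also called the H3K4me3 promoter peak lower, as at 97.9% of all genes with one. The direction of the ATAC-seq counts is set by the choice of peaks. The unlike direction of RNA at both genes is therefore described only, and was not tested against other genes. Tspan8, a tetraspanin gene, rose by 0.99 ± 0.22 (adjusted p 0.00207) and Hhip, a Hedgehog inhibitor gene, by 0.99 ± 0.22 (adjusted p 0.00189) in the authors' deposited table. Hpgd, which encodes the enzyme that degrades prostaglandins, rose by 0.80 ± 0.16 (adjusted p 0.000188) in the authors' deposited table, with sums of 2175, 1882, 1527 and 1382 counts in young and 965, 1079, 1135 and 1211 in old libraries at its 4 peaks, without overlap.

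Lower RNA with lower peaks was listed for 2 genes with several peaks. Ide, which encodes the insulin-degrading enzyme, fell by 0.47 on the log2 scale (SE 0.15, adjusted p 0.0494) and Lmo7, an adherens junction gene, fell by 0.44 (SE 0.13, adjusted p 0.0469) in the authors' deposited table. The 3 Ide peaks had sums of 1383, 1348, 1506 and 1174 against 628, 653, 819 and 1044 and the 3 Lmo7 peaks 1194, 1012, 1094 and 1076 against 892, 695, 828 and 474, with groups apart in both. Of the 19 genes with 2 or more peaks and called RNA, 16 had sums still lower in old after TMM, all but Eif3h, Map1b and Serpinb5, and Lmo7 was the only one with a listed peak of another kind that was higher in old.

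**Figure D5:**
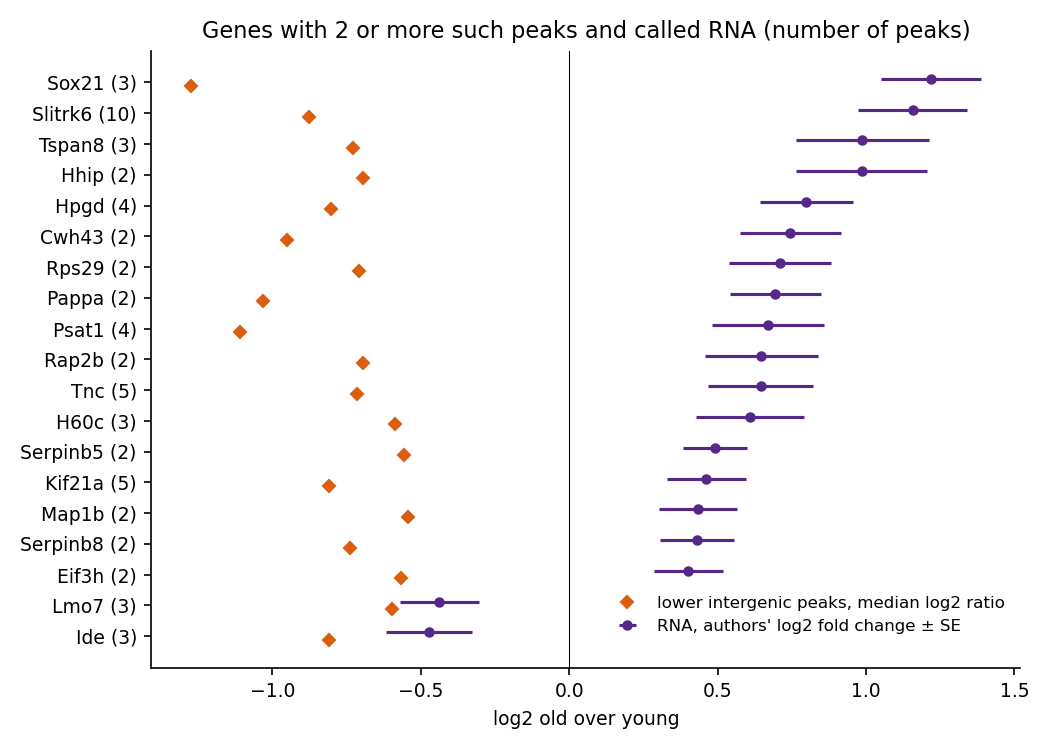
Genes with 2 or more lower intergenic peaks and RNA called in the authors' deposited table, with the RNA log2 fold change of old over young ± SE (violet) and the median log2 ratio of the gene's peaks (orange diamonds). All diamonds lie below 0 by the choice of the peaks, while RNA lies above 0 for 17 genes and below 0 for Lmo7 and Ide.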

How the data were processed

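The submitters' processing notes name BWA 0.7.12 and GRCm38 for ATAC-seq. For each peak the deposited table gives whole-number counts in the 8 libraries, a −log10 p-value, and a log2 ratio that the authors computed from unscaled group means, per the file headers and values. It lists only peaks with an absolute log2 ratio of at least 0.50 and a −log10 p-value of at least 2.00. No source used here names the peak caller, the test or any scaling before deposit.

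For ChIP-seq the same notes name BWA 0.7.15, MACS2 2.2.7.1 for peaks and DiffBind 2.14.0 for the comparison of ages. Per the file headers, the deposited ChIP-seq tables hold log2 mean levels, a log2 difference (young minus old, turned to old over young here), a p-value and an FDR. STAR 2.5.2b, featureCounts and DESeq2 1.22.2 are named there for RNA. The deposited RNA table holds mean normalized signal, a log2 fold change with its error, a test score, a p-value and an adjusted p-value, per the file headers. The depth of RNA and ChIP-seq libraries is unknown.

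Old and young ATAC-seq counts were described unscaled over the 8 libraries, with means and SD. No pair of libraries agreed within sampling noise (lowest chi-square per degree of freedom 10.8). The labels name no ATAC-seq batch, and replicates are biological ones per the series design. Scaling alternatives used the counts of the listed peaks alone, with edgeR 4.0.16 (TMM) and DESeq2 1.42.0 in R 4.3.3. Overlaps of at least 1 bp were computed in Python 3.11.15 with pandas 2.3.3 and numpy 2.4.6 and checked against bedtools 2.31.1 on simulated and real intervals. Figures used matplotlib 3.10.9. A promoter peak of a mark is one annotated within 1 kb of a start site. Calls use the authors' FDR or adjusted p-value at 0.05.

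Members, the 16 gene lists (542 genes) and the 20 motifs were chosen with earlier results of these data known. Named were the 20 genes with most peaks, the 10 lowest ratios, up to 8 members per mark and direction by FDR, genes with at least 2 members and called RNA, up to 3 genes per list, the 5 longest runs and the 3 peaks on each side nearest the threshold. Some genes that these rules select are not reported here. Other list genes, and the 3 highest counts, were named after their values were seen. Motifs could not be searched in the peaks themselves, as no genome was used here, and were searched in RefSeq promoter windows (GRCm38.p6) instead.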

Additional observations from a re-analysis of the deposited data

Results flagged for a closer look

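In 78 groups of 4 libraries, 5 had a library far from the others of its age, where the gap to its nearest neighbour took up most of the group's range (Dixon's 95% critical value). Chance flags about 1 in 20 such groups. Summed over the 2750 peaks, young replicate 4 with 1061581 counts stood above the other young libraries, which had 901497 to 928224. At the 10 Klf5 peaks young replicate 4 reached 3825 against 3340 to 3364. In the Edn1 peak old replicate 4 had 0 counts against 10 or 11 in the other old libraries, in the Dio3 peak old replicate 1 had 46 against 8 to 11, and in the Cipc peak old replicate 2 had 291 against 241 to 248. Without young replicate 4, 2743 of the 2750 peaks were lower in old and the median log2 ratio was -0.64.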

How the results depend on the processing

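The direction at the intergenic peaks is set by how they were chosen, so these alternatives bear on counts and sizes. Of 59 alternatives, 33 stayed within 1.5 times the value reported (or within 1 SD for the median ratio) and 26 moved further. The median ratio turned its sign in 0 of its alternatives. All other results are counts, which cannot change sign. Peaks whose ages did not overlap numbered 106 after division by library totals, 77 after TMM and 78 after DESeq2 size factors, against 1088 unscaled, and the median log2 ratio became -0.17, -0.10 and -0.11. The share of all listed peaks with ages apart was computed on unscaled counts of all 8 libraries only. The counts after scaling or with a library left out therefore say nothing particular about intergenic peaks. Genes with several peaks numbered 140 under TMM, 43 when peaks had to lie within 50 kb of the start site, 532 with several taken as at least 2 and 45 as at least 5, against 212. Runs of peaks numbered 24 with a gap of at most 5 kb and 99 with 25 kb, against 53. With overlap of at least 0.5 of an ATAC-seq peak's length, 12 peaks lay on Pol2 and 1 Pol2 peak was called lower. With a mark counted within 1 kb, 304 peaks lay near H3K27me3 with 4 of its peaks called higher, and 35 near Pol2 with 12 called lower. With a mean count of at least 50, 1 H3K27me3 peak was called higher. At FDR 0.01, H3K27me3 had 19 lower and 1 higher and Pol2 had 1 lower. RNA calls were 23 higher and 6 lower for peaks within 50 kb, and 16 higher and 1 lower at an adjusted p of 0.01, against 37 and 12.

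With 1 library left out, none of 128 values moved past these limits: 2743 to 2750 peaks were lower in old, 1168 to 1441 had ages apart, and the median log2 ratio lay between -0.75 and -0.63. Most of these values could hardly move, so their staying is no test of the results. Every listed peak has an absolute log2 ratio of at least 0.50, so leaving out 1 library seldom changes which peaks are lower. The mark and RNA calls use the ATAC-seq counts only through the choice of peaks. No paired analysis was possible because no old against young test was run on peaks chosen by that contrast, and the ChIP-seq and RNA values carry no replicate columns. Motif searches in the peaks, with windows of other widths, were not run because no genome was used here. The promoter windows and the comparison with wide distal H3K27me3 peaks were chosen after seeing the data. Unknown depth limits every ratio.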
